A study of Mus musculus with 12 samples.

Results

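This account follows 34 genes of the cell's answer to misfolded protein in the endoplasmic reticulum (ER), read in RNA-seq libraries of mouse bone marrow. The genes were listed by symbol, and each was found by its Ensembl identifier, with the version removed, through GRCm38 gene names of GENCODE M21. All 34 were found among 31060 genes of the count table, and all 34 were among the 15630 genes that passed the filter on low counts and were tested. By role, 15 are chaperones and folding enzymes, 8 act in ER-associated degradation (ERAD), 4 are sensors or the transcription factor directly downstream of a sensor, and 7 belong to the branch of ATF4 and CHOP. The 11 libraries came from the Lin-negative fraction of C57BL/6 marrow, the cells left when those carrying markers of mature blood lineages have been removed. They fall into 4 genotypes, which the labels spell Tet2+/-;Ins2Akita/+ (3 libraries, called here the libraries labelled with both alleles), Tet2+/- (3 libraries), Ins2Akita/+ (2 libraries) and WT (3 libraries). Tet2 encodes an enzyme that oxidises methylated cytosine in DNA, and a Tet2+/- animal has a single intact copy. Ins2Akita is a dominant allele of an insulin gene whose product misfolds. That gene is used chiefly in pancreatic beta cells, and carriers become hyperglycemic, so the allele marks animals with high blood glucose and not a change made in marrow cells. The labels give no age and leave unsaid whether libraries of a genotype are separate animals, and the p-values therefore speak only for the spread among these libraries, which may be technical.

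Proteins that are secreted or placed in membranes fold in the ER, helped by chaperones such as BiP (Hspa5) and by enzymes that form disulfide bonds. When unfolded protein builds up, 3 sensors respond: IRE1 (Ern1) splices the mRNA of Xbp1, ATF6 (Atf6) is cut to free a transcription factor, and PERK (Eif2ak3) slows translation while raising that of ATF4 (Atf4). ATF6 and spliced XBP1 are known to raise chaperones and ERAD genes, whereas ATF4 raises genes of amino acid supply and, under lasting stress, CHOP (Ddit3). ATF4 is also reached by other kinases that sense amino acid shortage, viral RNA or lack of heme, so its targets can move without the chaperones. Counts per gene show neither the splicing of Xbp1 nor the phosphorylation of PERK. In granulocyte, plasma cell and other secreting lineages of marrow, the load on the ER changes with maturation.

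Short promoter elements are known through which the factors of these branches act, and those found in the members are shown first. RefSeq promoter windows of GRCm38.p6, from 250 bases before to 50 bases after the start of transcription, were available for 30 of the 34 genes and were searched on both strands. The ER stress element, CCAAT followed after 9 further bases by CCACG, which ATF6 binds together with NF-Y, was present in 9 of 30 members (30%) and in 37 of 27025 genes with a window (0.137%). Of the 9, 7 are chaperones or folding enzymes (Hspa5, Hsp90b1, Calr, Canx, Pdia6, Dnajc3 and Creld2) and 2 act in ERAD (Derl3 and Syvn1). The related element ERSE-II, made of ATTGG, any base and CCACG, in which ATTGG is the reverse complement of CCAAT, was present in Herpud1 and Dnajb11 and in 12 of all genes (0.0444%). The element TGATGNAAT, bound by ATF4 together with a C/EBP protein, was present in none of the 30 windows and in 1.08% of all genes. Its first 8 letters, TGATGNAA, were then searched, a choice made after that result, and every match of the longer form is a match of the shorter. They were present in 5 of 30 members, namely Asns, Atf3, Chac1 and Trib3 of the ATF4 branch and Herpud1, against 4.51% of all genes. The core TGACGTGG, bound by XBP1, was in none of the 30 windows and in 0.714% of all genes. A window without these letters says nothing about a factor's binding elsewhere.

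The ER stress element is shown for the 6 members with the highest mean level that carry it. Each sequence is written on the strand of its gene, the match is in capitals, and the brackets give the GRCm38 position of the printed run and the strand of the gene. A match that begins with CGTGG lies on the other strand.
Hspa5 (chr2:34772020-34772048, +): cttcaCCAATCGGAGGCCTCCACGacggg
Calr (chr8:84847060-84847108, -): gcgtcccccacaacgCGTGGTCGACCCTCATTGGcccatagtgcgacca
Hsp90b1, distal (chr10:86705623-86705671, -): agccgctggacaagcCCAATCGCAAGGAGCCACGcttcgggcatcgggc
Hsp90b1, proximal (chr10:86705518-86705566, -): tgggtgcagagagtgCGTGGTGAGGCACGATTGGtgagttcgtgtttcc
Canx (chr11:50325785-50325833, -): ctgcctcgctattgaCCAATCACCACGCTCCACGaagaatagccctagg
Pdia6 (chr12:17266476-17266524, +): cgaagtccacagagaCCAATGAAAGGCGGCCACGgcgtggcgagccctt
Syvn1 (chr19:6046517-6046565, +): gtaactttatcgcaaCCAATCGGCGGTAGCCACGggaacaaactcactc
Hsp90b1 was the member with 2 matches. In GENCODE M21 the runs of Calr, Hsp90b1, Canx, Pdia6 and Syvn1 lie upstream of the annotated gene, and the run of Hspa5 lies in an exon, since GENCODE M21 starts that gene further upstream than RefSeq.

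Both members with ERSE-II follow, since they mark the ERAD and folding genes that carry the related element in place of the longer form.
Herpud1 (chr8:94386362-94386402, +): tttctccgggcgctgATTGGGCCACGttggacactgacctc
Dnajb11 (chr16:22857843-22857871, +): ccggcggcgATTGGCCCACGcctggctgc
The Herpud1 run lies upstream of the gene and inside the annotated span of Gm15890. The Dnajb11 run begins just upstream of the annotated gene and extends into its exon, with the match at bases 8 to 18 after the RefSeq start.

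The 5 members with TGATGNAA are shown because Asns ran opposite to the others in some libraries, as given below. A match whose capitals begin with TT lies on the other strand.
Atf3 (chr1:191183421-191183458, -): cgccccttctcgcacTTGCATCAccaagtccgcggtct
Asns (chr6:7693214-7693243, -): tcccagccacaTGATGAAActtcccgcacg
Herpud1 (chr8:94386302-94386339, +): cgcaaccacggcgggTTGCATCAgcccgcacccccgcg
Trib3 (chr2:152344028-152344057, -): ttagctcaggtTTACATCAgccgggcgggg
Chac1 (chr2:119351034-119351071, +): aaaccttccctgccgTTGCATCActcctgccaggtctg
The runs of Chac1 and Herpud1 lie upstream of the annotated genes, and that of Asns lies in an exon. The run of Trib3 spans the start of the annotated gene, with the match itself upstream of it. The run of Atf3 lies in an intron of the longer gene that GENCODE M21 annotates.

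Several facts of the series touch every value that follows. Total counts ran from 14814409 to 22600405, and levels are given as CPM, counts scaled to a fixed library total with TMM factors. Libraries numbered 3, which exist for 3 of the 4 genotypes and not for Ins2Akita/+, stood apart. Mitochondrial genes took 9.76%, 4.46% and 3.43% of counts in number 3 of both alleles, Tet2+/- and WT, and 1.36% to 1.94% in the 8 others. Primary granule genes of neutrophils (6 of 6 detected) summed to 7369, 609 and 1518 CPM in those 3 libraries and to at least 7887 CPM in the others. Their part in the results was not tested, and the counts, the scores and the tests of most named genes are given with and without these libraries. Tet2 stood at 66.5, 108 and 34.2 CPM in the libraries labelled with both alleles, 19.0, 18.5 and 19.3 CPM in Tet2+/-, 131 and 107 CPM in Ins2Akita/+ and 91.2, 128 and 45.1 CPM in WT. The libraries labelled with both alleles thus did not share the low Tet2 level of the Tet2+/- libraries, and every direction below is between libraries carrying these labels. Of the markers of the Lin-negative fraction, the progenitor gene Kit lay at 76.1 to 132 CPM and the stem and progenitor gene Cd34 at 31.9 to 247 CPM. The T cell gene Cd3e lay at 3.28 to 13.5 CPM. Nkg7, of the same list of T and NK cell genes, lay at 19.2 to 181 CPM. The maturing neutrophil gene S100a9 lay at 545 to 21226 CPM, so these levels do not show a fraction free of maturing cells. In bulk RNA, fewer cells of a type and less RNA per cell cannot be told apart.

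The genes were abundant. Per kilobase of merged exon, Hspa5 averaged 551 CPM over the 11 libraries, above 99.6% of the genes tested. Calr, the lectin chaperone calreticulin, followed at 459 CPM per kilobase, then Atf4 at 338 and P4hb, a protein disulfide isomerase, at 323. The least abundant were Derl3, a channel component of ERAD found mostly in secretory cells, at 4.34 CPM per kilobase, Derl2 at 5.69 and Chac1 at 5.93. The spread between libraries also differed widely. The highest library exceeded the lowest by 21.6-fold for Chac1 and 17.5-fold for Trib3, and by 1.70-fold for Derl1. Without the libraries numbered 3 these ratios were 1.71 for Chac1, 1.31 for Trib3 and 1.17 for Derl1, so most of that spread lay in those 3 libraries.

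**Figure D1:**
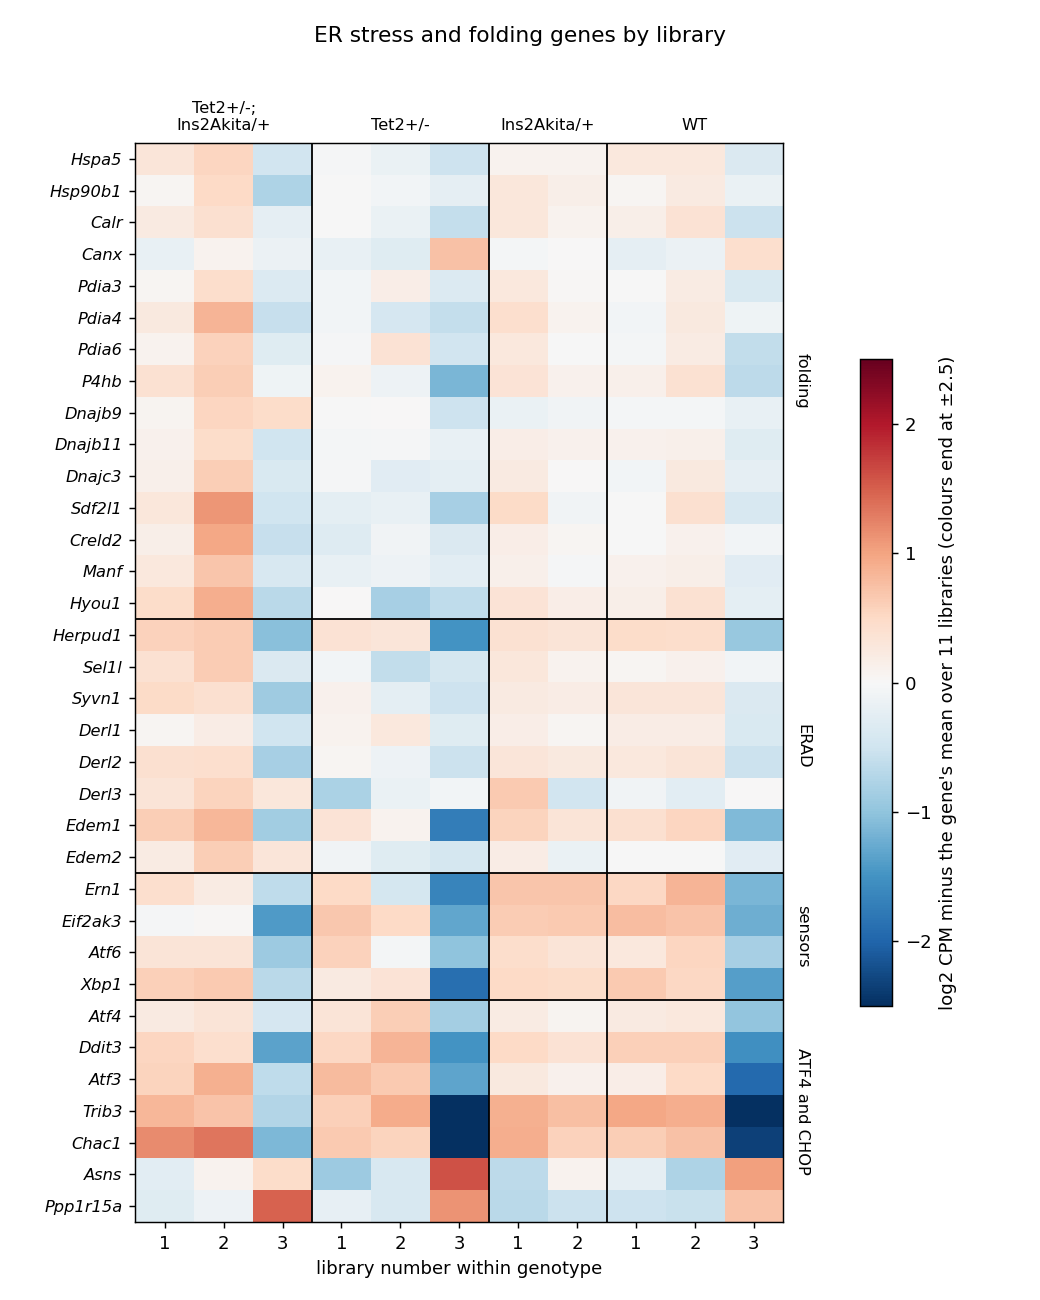
Each row is a gene and each column a library, grouped by genotype and numbered as labelled; colour gives log2 CPM minus the mean of the gene over 11 libraries, and the colours end at ±2.5. The columns numbered 3 are blue for most genes and red for Asns and Ppp1r15a, and number 2 of Tet2+/-;Ins2Akita/+ is red for nearly all folding genes.

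No member was called in any comparison over all 11 libraries. With edgeR's quasi-likelihood test and Benjamini-Hochberg adjustment over 15630 genes, 0 of 34 passed for both alleles against WT, where 0.0448% of genes were called. The count was likewise 0 for Tet2+/- against WT (0.0256% of genes called), Ins2Akita/+ against WT (0%), both alleles against Tet2+/- (0.262%), both alleles against Ins2Akita/+ (0.0384%) and the interaction, which is the Akita difference on the Tet2+/- background minus that on WT (0%). At an unadjusted p under 0.05, 2 members passed for both alleles against WT, where 8.79% of genes did, and 3 passed for both alleles against Tet2+/-, where 10.9% did. None passed for Tet2+/- against WT (2.12% of genes), Ins2Akita/+ against WT (0.429%), both alleles against Ins2Akita/+ (6.6%) or the interaction (3.44%). Other fits also called 0 members in each of the 6, taken in the order just given for adjusted p. The shares of genes called were 2.61%, 0.288%, 0%, 3.44%, 1.21% and 0.365% with DESeq2, and 0.0832%, 0.0256%, 0%, 0.205%, 0.0192% and 0% with limma voom. With the replicate number as a block in edgeR they were 1.63%, 0.0512%, 0%, 4.5%, 0.115% and 0.0192%. The counts of members at an unadjusted p under 0.05 lie near the background, and the comparisons share the libraries of each genotype, so they are not separate evidence.

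Without the libraries numbered 3, which leaves 2 libraries per genotype, a few members were called. Eif2ak3 was lower in both alleles against WT (1 of 34, where 3.44% of genes were called), against Ins2Akita/+ (1 of 34, 2.89%) and against Tet2+/-. In the last comparison Sel1l and Manf were also called, both higher, making 3 of 34, where 7.71% of genes were called. No member was called for Tet2+/- against WT (0.146% of genes), Ins2Akita/+ against WT (0%) or the interaction (0.0464%), and at an unadjusted p under 0.05 these had 4, 0 and 10 members, where 6.88%, 0.676% and 12.8% of genes did. For both alleles against Tet2+/-, 20 of 34 members reached an unadjusted p under 0.05, 19 of them higher, where 25.1% of genes did. There were 8 against WT, 7 of them higher (19.6% of genes), and 6 against Ins2Akita/+, 5 of them higher (20.4% of genes).

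Taking the chaperones and folding enzymes first, their fitted log2 differences leaned towards higher levels in both alleles than in Tet2+/-, with 14 of 15 above 0 and a median of 0.41, where the median of all genes tested was -0.08. Without the libraries numbered 3 all 15 were above 0, with a median of 0.52 against -0.01 for all genes. The labels do not show that libraries of the same number are matched across genotypes. Within library numbers, 15 of 15 were higher in number 1, 15 of 15 in number 2 and 8 of 15 in number 3. In number 3 their median was 0.006 against -0.105 for all genes, so that library showed little of the lean. Against WT, 13 of 15 lay above 0 in both alleles over all libraries (median 0.25) and 15 of 15 without number 3 (median 0.26). Within library numbers that comparison had 15 of 15 higher in number 1, 15 of 15 in number 2 and 5 of 15 in number 3. There the median was -0.12 against -0.07 for all genes. Without matching by number, 7 of 15 had numbers 1 and 2 of both alleles above both of WT (27.8% of genes). For Tet2+/- this held for 13 of 15 (26.9% of genes), and for Ins2Akita/+ for 5 of 15 (27.5% of genes). Within numbers, 5 of 15 were higher than in Ins2Akita/+ in number 1 (median -0.07) and 15 of 15 in number 2 (median 0.58).

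Hspa5, the main ER chaperone and itself a brake on all 3 sensors, stood at 2794, 3308 and 1629 CPM in the libraries labelled with both alleles, 2223, 2022 and 1593 CPM in Tet2+/-, 2414 and 2413 CPM in Ins2Akita/+ and 2742, 2720.1 and 1763 CPM in WT. Numbers 1 and 2 of both alleles were above every other library, number 1 by little, and number 3 was the lowest of its genotype in each of the 3 with such a library. The log2 difference of both alleles against Tet2+/- was 0.41 (SE 0.29, adjusted p = 0.620), and without number 3 it was 0.52 (SE 0.16, adjusted p = 0.0863). Hyou1, the large chaperone that helps BiP exchange its nucleotide, had the widest difference of the folding genes in that comparison without number 3. It stood at 300.4, 407 and 136 CPM in both alleles, 219, 122 and 141 CPM in Tet2+/-, 276 and 244 CPM in Ins2Akita/+ and 240.1, 284 and 183 CPM in WT. Its log2 difference of both alleles against Tet2+/- was 0.81 (SE 0.38, adjusted p = 0.482) over all libraries and 1.05 (SE 0.27, adjusted p = 0.0525) without number 3. The groups overlapped through number 3 of both alleles, which lay below numbers 1 and 3 of Tet2+/-.

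Manf, an ER-resident and secreted protein that binds BiP, stood at 179, 243 and 113 CPM in both alleles, 131, 136 and 124 CPM in Tet2+/-, 163 and 147 CPM in Ins2Akita/+ and 161, 165 and 122 CPM in WT. Its difference of both alleles against Tet2+/- was 0.45 (SE 0.27, adjusted p = 0.563) over all libraries and 0.66 (SE 0.16, adjusted p = 0.0430) without number 3, where it was called. Sdf2l1, a partner of the ER co-chaperones, stood at 61.9, 109 and 36.0 CPM in both alleles, 42.7, 44.8 and 28.6 CPM in Tet2+/-, 70.3 and 47.7 CPM in Ins2Akita/+ and 50.1, 66.7 and 38.2 CPM in WT. Creld2, an ER protein with disulfide isomerase activity, stood at 64.6, 114 and 39.4 CPM in both alleles, 46.4, 54.5 and 45.6 CPM in Tet2+/-, 65.4 and 60.0 CPM in Ins2Akita/+ and 57.7, 62.8 and 55.4 CPM in WT. For both genes number 2 of both alleles was the highest of all 11 libraries. Creld2 was the single member whose Tet2+/- libraries all lay below all WT libraries, where 2.18% of genes did so. That Tet2+/- difference was -0.27 (SE 0.32, adjusted p = 0.99994).

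Dnajb9, a co-chaperone that feeds substrates to ERAD and restrains IRE1, was the folding gene whose libraries labelled with both alleles all lay above those of the other genotypes. It stood at 99.1, 136 and 129 CPM in both alleles, 93.6, 94.9 and 66.0 CPM in Tet2+/-, 83.8 and 88.4 CPM in Ins2Akita/+ and 90.7, 90.8 and 82.6 CPM in WT. The difference was 0.46 (SE 0.20, adjusted p = 0.540) against WT, 0.51 (SE 0.20, adjusted p = 0.389) against Tet2+/- and 0.49 (SE 0.23, adjusted p = 0.775) against Ins2Akita/+. Without number 3 it was 0.37 (SE 0.15, adjusted p = 0.230), 0.32 (SE 0.15, adjusted p = 0.244) and 0.45 (SE 0.15, adjusted p = 0.155) in the same order. Unlike most members it was not lowest in number 3 of both alleles. Canx, the membrane-bound lectin chaperone calnexin, ran the other way from most folding genes in number 3 of Tet2+/- and WT. It stood at 342, 411 and 347 CPM in both alleles, 338, 312 and 645 CPM in Tet2+/-, 371 and 389 CPM in Ins2Akita/+ and 329, 349 and 517 CPM in WT.

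The disulfide isomerases differed among themselves. Pdia4 stood at 114, 174 and 64.7 CPM in both alleles, 92.0, 71.7 and 64.0 CPM in Tet2+/-, 129 and 103 CPM in Ins2Akita/+ and 92.7, 114 and 89.5 CPM in WT, and its difference of both alleles against Tet2+/- was 0.63 (SE 0.32, adjusted p = 0.514), or 0.81 (SE 0.23, adjusted p = 0.0696) without number 3. P4hb stood at 1149, 1352 and 812 CPM in both alleles, 939, 803 and 399.6 CPM in Tet2+/-, 1109 and 949.8 CPM in Ins2Akita/+ and 962, 1138 and 556 CPM in WT, with a difference of 0.63 (SE 0.37, adjusted p = 0.556) in the same comparison and 0.52 (SE 0.17, adjusted p = 0.106) without number 3. Pdia3 and Pdia6 had 0.15 (SE 0.26) and 0.17 (SE 0.31) there, and 0.20 (SE 0.18) and 0.17 (SE 0.21) without number 3. The other chaperones, Hsp90b1 (GRP94), Calr, Dnajb11 and Dnajc3, lay between 0.13 and 0.39. Hsp90b1 shares 415 exonic bases with a pseudogene on the opposite strand, and whether the counting used strand is not given in the sources used here, so its counts are less certain.

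The ERAD genes behaved much like the chaperones. For both alleles against Tet2+/-, 7 of 8 lay above 0 with a median of 0.43, and without number 3 again 7 of 8 with a median of 0.50. Sel1l, the adaptor of the ERAD ubiquitin ligase, stood at 104, 123 and 61.7 CPM in both alleles, 76.5, 52.0 and 58.8 CPM in Tet2+/-, 96.9 and 84.7 CPM in Ins2Akita/+ and 82.9, 85.6 and 76.0 CPM in WT. Numbers 1 and 2 of both alleles lay above all other libraries, and numbers 2 and 3 of Tet2+/- were the lowest of all. The difference against Tet2+/- was 0.63 (SE 0.26, adjusted p = 0.418) over all libraries and 0.82 (SE 0.19, adjusted p = 0.0373) without number 3, where it was called. Syvn1, the ligase itself (HRD1), stood at 197, 189 and 77.1 CPM in both alleles, 154, 121 and 99.8 CPM in Tet2+/-, 167 and 161 CPM in Ins2Akita/+ and 175, 175 and 110.2 CPM in WT. It was the highest in numbers 1 and 2 of both alleles and the lowest in number 3 of the same genotype.

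Edem2 and Derl3 were the ERAD genes whose libraries labelled with both alleles, number 3 included, all lay above those of Tet2+/- and WT. Edem2, which trims mannose from misfolded glycoproteins, stood at 78.2, 104 and 84.5 CPM in both alleles, 64.3, 55.4 and 50.3 CPM in Tet2+/-, 78.1 and 60.7 CPM in Ins2Akita/+ and 67.3, 68.1 and 55.8 CPM in WT. Every library labelled with both alleles lay above every other, number 1 only just above the higher Ins2Akita/+ library. The difference was 0.48 (SE 0.20, adjusted p = 0.488) against WT and 0.65 (SE 0.20, adjusted p = 0.241) against Tet2+/-, the smallest adjusted p of any member in both. Without number 3 it was 0.43 (SE 0.18, adjusted p = 0.233) and 0.61 (SE 0.18, adjusted p = 0.0813). Derl3 stood at 10.4, 12.3 and 10.1 CPM in both alleles, 4.79, 7.42 and 7.88 CPM in Tet2+/-, 13.1 and 5.95 CPM in Ins2Akita/+ and 7.86, 6.92 and 8.41 CPM in WT. Edem2, Derl3 and Dnajb9 were the 3 members with no overlap above WT, where 9.55% of genes had none in that direction, and the same 3 had none above Tet2+/-, where 8.48% had none. Against Ins2Akita/+ the 3 without overlap above it were Edem2, Dnajb9 and Ppp1r15a (16.6% of genes), and the 2 below it were Eif2ak3 and Ern1 (19.9%). Without number 3, where 2 libraries face 2, 17 members lay fully above WT and 4 fully below (27.8% and 29.1% of genes). Against Tet2+/- there were 23 above and 2 below (26.9% and 26.8% of genes), and against Ins2Akita/+ 16 above and 2 below (27.5% and 29.4% of genes).

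Herpud1 and Edem1 differed more by library number than by genotype. Herpud1, a membrane protein that gathers the ERAD machinery, stood at 487, 508 and 157 CPM in both alleles, 418, 399.0 and 116 CPM in Tet2+/-, 426 and 405 CPM in Ins2Akita/+ and 448, 444 and 168 CPM in WT. Edem1, a mannosidase-like protein of ERAD, stood at 312, 363 and 113 CPM in both alleles, 258, 218 and 62.0 CPM in Tet2+/-, 301 and 257 CPM in Ins2Akita/+ and 269, 295 and 94.9 CPM in WT. The remaining ERAD genes were Derl1, with a difference of -0.09 (SE 0.25) for both alleles against Tet2+/-, and Derl2, with 0.28 (SE 0.35). Without number 3 these were -0.06 (SE 0.13) and 0.44 (SE 0.12, adjusted p = 0.0634). Derl2 shares 231 exonic bases with Mis12 on the opposite strand.

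**Figure D2:**
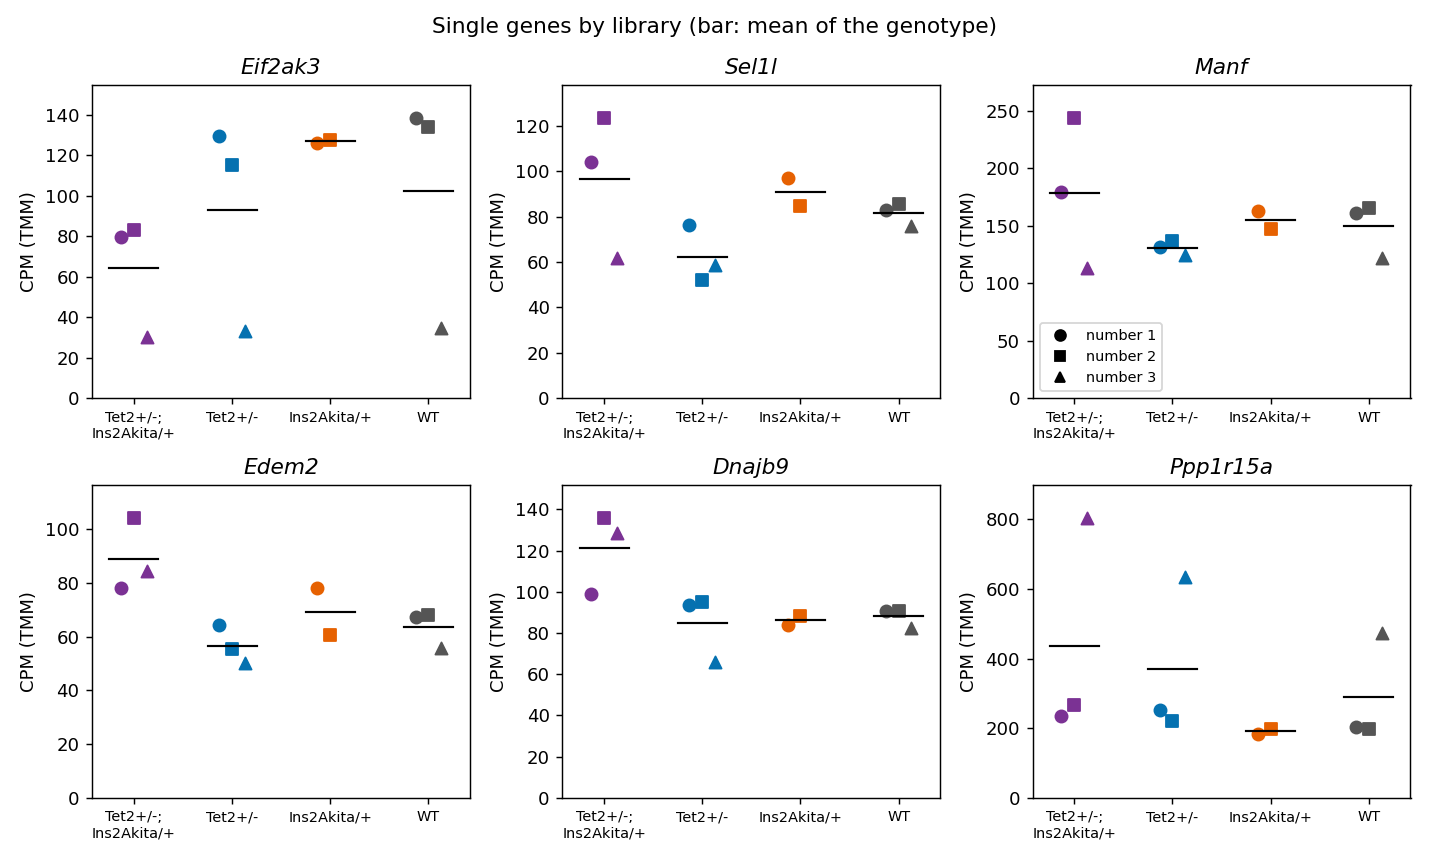
CPM of 6 members in every library, with genotypes along the horizontal axis, a symbol for each library number and a bar at the mean of the genotype. Eif2ak3 is lower in numbers 1 and 2 of Tet2+/-;Ins2Akita/+ than in those of the other genotypes, Edem2 and Dnajb9 are higher in all 3 libraries of that genotype, and Ppp1r15a is highest in the libraries numbered 3.

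Among the sensors, Eif2ak3 went against the chaperones. It stood at 79.5, 83.1 and 30.3 CPM in both alleles, 129.6, 115 and 33.2 CPM in Tet2+/-, 126 and 128 CPM in Ins2Akita/+ and 138, 134 and 34.8 CPM in WT. Numbers 1 and 2 of both alleles lay below numbers 1 and 2 of every other genotype, and the 3 libraries numbered 3 lay close together. Over all libraries the difference was not called, at -0.67 (SE 0.62, adjusted p = 0.855) against WT. It was -0.53 (SE 0.62, adjusted p = 0.753) against Tet2+/- and -0.98 (SE 0.68, adjusted p = 0.925) against Ins2Akita/+. Without number 3 it was -0.74 against WT (SE 0.12, adjusted p = 0.0209), -0.59 against Tet2+/- (SE 0.12, adjusted p = 0.0221) and -0.64 against Ins2Akita/+ (SE 0.12, adjusted p = 0.0311), and it was called lower in each. With the replicate number as a block it was called in none of the 3, at -0.56 against WT (adjusted p = 0.0898), -0.43 against Tet2+/- (adjusted p = 0.119) and -0.53 against Ins2Akita/+ (adjusted p = 0.227). Eif2ak3 shares 485 exonic bases with Gm43292 on the opposite strand.

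The other sensor genes were called in no comparison, with or without number 3. Ern1 stood at 134, 116 and 65.0 CPM in both alleles, 143, 73.9 and 32.1 CPM in Tet2+/-, 163 and 163 CPM in Ins2Akita/+ and 144, 181 and 45.6 CPM in WT. The log2 difference of Ern1 in both alleles against WT was -0.23 (SE 0.58) over all libraries and -0.37 (SE 0.27) without number 3. Atf6 stood at 118, 118 and 50.3 CPM in both alleles, 141, 91.1 and 46.9 CPM in Tet2+/-, 127 and 118 CPM in Ins2Akita/+ and 113, 136 and 52.7 CPM in WT, with -0.08 (SE 0.48) and -0.08 (SE 0.20). Xbp1 stood at 409, 425 and 171 CPM in both alleles, 315, 346 and 73.1 CPM in Tet2+/-, 385 and 371 CPM in Ins2Akita/+ and 425, 388 and 104 CPM in WT, with 0.13 (SE 0.63) and 0.04 (SE 0.13). Against Tet2+/-, Xbp1 was 0.34 (SE 0.13, adjusted p = 0.144) without number 3. Over all libraries 0 of 4 sensors lay above 0 for both alleles against Ins2Akita/+, where number 3 enters on one side only.

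The ATF4 and CHOP branch split in the libraries numbered 3. Atf4, the transcription factor at its head, stood at 885, 947 and 561 CPM in both alleles, 950.1, 1160.5 and 418 CPM in Tet2+/-, 868 and 795 CPM in Ins2Akita/+ and 886, 904 and 382 CPM in WT. Ddit3, which encodes CHOP, stood at 178, 164 and 48.4 CPM in both alleles, 175, 219.5 and 43.2 CPM in Tet2+/-, 173 and 158 CPM in Ins2Akita/+ and 184, 185 and 42.5 CPM in WT. Atf3, a stress-induced repressor and activator downstream of ATF4, stood at 388, 488 and 171 CPM in both alleles, 460.2, 414 and 106 CPM in Tet2+/-, 313 and 284 CPM in Ins2Akita/+ and 299, 374 and 68.6 CPM in WT. For all 3 genes, every library numbered 3 lay below every other library.

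Trib3, a pseudokinase that dampens ATF4 and CHOP, and Chac1, an enzyme that breaks down glutathione, were called lower in number 3 by the widest margins, -2.83 (SE 0.46) and -2.96 (SE 0.28) on the log2 scale over the 3 genotypes. Trib3 stood at 21.2, 19.4 and 7.10 CPM in both alleles, 17.9, 22.6 and 1.84 CPM in Tet2+/-, 21.9 and 20.0 CPM in Ins2Akita/+ and 23.3, 22.3 and 1.33 CPM in WT. Chac1 stood at 16.0, 17.8 and 3.23 CPM in both alleles, 11.1, 10.4 and 0.82 CPM in Tet2+/-, 13.2 and 10.5 CPM in Ins2Akita/+ and 10.8, 11.7 and 1.39 CPM in WT. The lowest library counts were 22 for Trib3 and 17 for Chac1, so these values carry more counting error than the rest. Chac1 in both alleles was 0.73 (SE 0.96, adjusted p = 0.783) against Tet2+/-, and 0.65 (SE 0.18, adjusted p = 0.0658) without number 3.

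Asns and Ppp1r15a ran opposite to the other 5 genes of the branch. Asns, the asparagine synthetase that ATF4 raises on amino acid shortage, stood at 64.8, 82.6 and 107 CPM in both alleles, 41.3, 59.5 and 236 CPM in Tet2+/-, 49.4 and 82.9 CPM in Ins2Akita/+ and 66.6, 45.4 and 158 CPM in WT. Ppp1r15a (GADD34), the phosphatase subunit that lifts the block on translation set by PERK, stood at 234, 267 and 804 CPM in both alleles, 252, 221 and 635 CPM in Tet2+/-, 183 and 199 CPM in Ins2Akita/+ and 203, 196 and 474 CPM in WT. Both were highest in number 3 of each genotype that has one. The mean log2 CPM of Asns and Ppp1r15a, less the mean of each gene over all libraries, was 0.96, 1.36 and 0.86 in number 3 of both alleles, Tet2+/- and WT. For Atf4, Ddit3, Atf3, Trib3 and Chac1 together it was -0.85, -1.85 and -1.96 in the same libraries. The promoters printed above do not separate these sets, since Asns carries TGATGNAA like Atf3, Trib3 and Chac1.

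**Figure D3:**
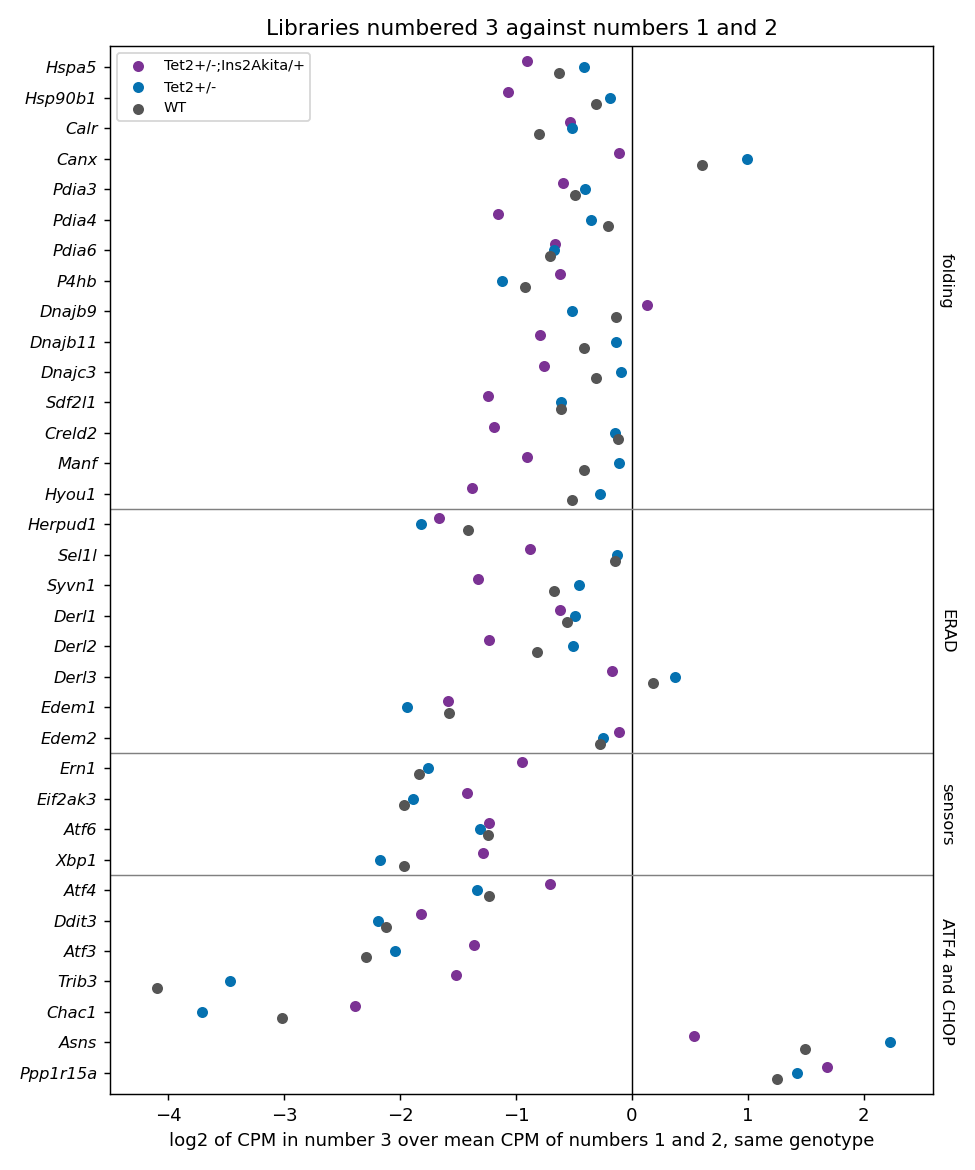
For each member, the log2 ratio of its CPM in the library numbered 3 to the mean CPM of numbers 1 and 2 of the same genotype, with a point for Tet2+/-;Ins2Akita/+, Tet2+/- and WT. Of 34 genes, 29 lie below 0 in all 3 genotypes, and Asns and Ppp1r15a lie above 0 in all 3.

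Over the 3 genotypes with such a library, number 3 against numbers 1 and 2 called more members than any comparison of genotypes. This contrast is not one of the study's and was chosen after the libraries were seen to stand apart. With edgeR's quasi-likelihood test 22 of 34 members were called lower, where 23.5% of genes were, and 3 higher (Canx, Asns and Ppp1r15a), where 23.5% of genes were. The median member lay at -0.66, and the median of all genes tested at 0.04. By role, 4 of 4 sensors (median -1.62), 5 of 8 ERAD genes (-0.68), 8 of 15 chaperones (-0.50) and 5 of 7 genes of the ATF4 branch (-1.88) were called lower. Ern1, Eif2ak3, Atf6 and Xbp1 stood at -1.49, -1.75, -1.26 and -1.79 (SE 0.14 to 0.25). Markers moved with number 3 as well: 6 of 6 primary granule genes were called lower (median -2.11) and 6 of 12 erythroid genes higher (median 0.74). Monocyte genes were called lower in 4 of 4 cases (median -1.79), dendritic genes in 3 of 6 (median -0.53), T and NK cell genes in 2 of 5 (median -0.78) and maturing neutrophil genes in 2 of 10 (median -1.79). Of 6 megakaryocyte genes 2 were called higher and 1 lower (median 0.69). These shifts were not alike in the 3 libraries. Maturing neutrophil markers summed to 60521 CPM in number 3 of both alleles, between its numbers 1 and 2 (45060 and 69424 CPM). In number 3 of Tet2+/- and WT they summed to 2921 and 2079 CPM. Erythroid markers in number 3 of both alleles (1254 CPM) also lay between its numbers 1 and 2. Megakaryocyte markers summed to 487 CPM in number 3 of both alleles and 129 CPM in that of Tet2+/-. The part of these cell types and of the mitochondrial share in the members' difference was not tested.

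Scores set the branches side by side within a library. The score of a role is the mean over its genes of log2 CPM less the mean of each gene over 11 libraries, and it is a description with no test. The chaperone score was 0.18, 0.62 and -0.37 in both alleles, -0.08, -0.15 and -0.41 in Tet2+/-, 0.21 and 0.04 in Ins2Akita/+ and 0.03, 0.21 and -0.28 in WT. The score of the ATF4 and CHOP branch was 0.39, 0.51 and -0.33 in both alleles, 0.25, 0.40 and -0.93 in Tet2+/-, 0.19 and 0.20 in Ins2Akita/+ and 0.26, 0.23 and -1.15 in WT. In the chaperone score number 2 of both alleles stood alone at the top and all 3 Tet2+/- libraries lay below 0. In the ATF4 score the libraries numbered 1 and 2 of all genotypes lay within 0.19 to 0.51.

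**Figure D4:**
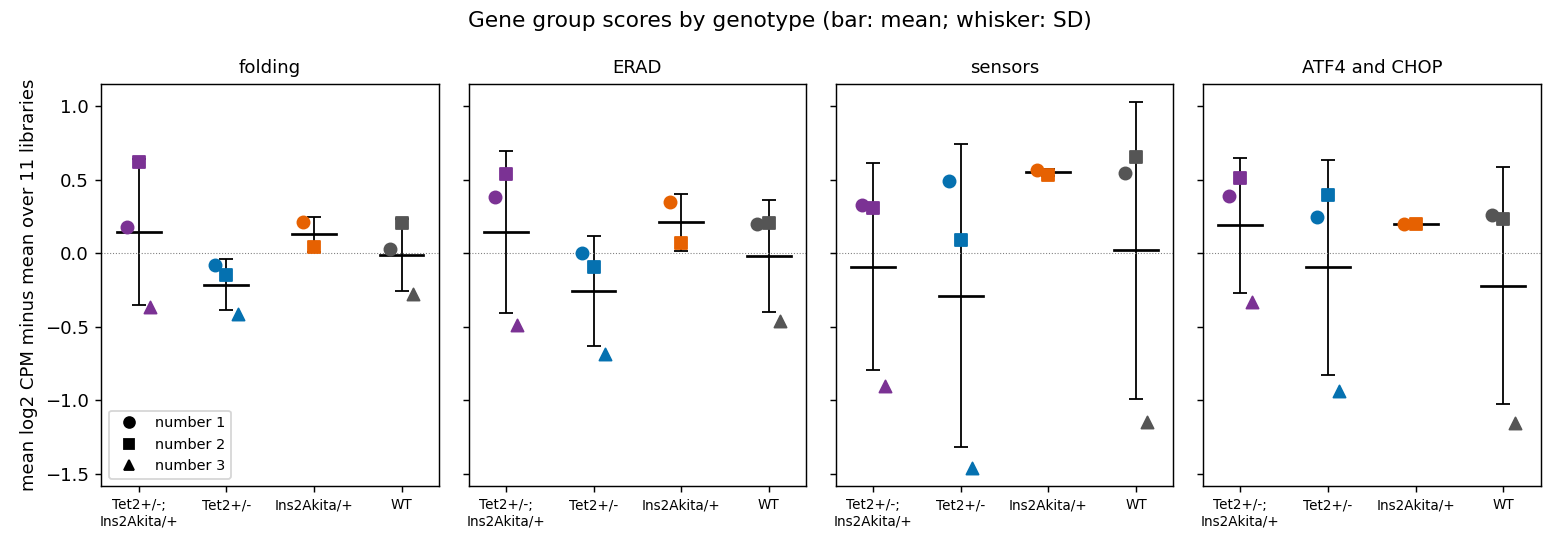
Score of each role by genotype, in mean log2 CPM less the mean of each gene over 11 libraries; symbols give the library number, bars the mean and whiskers the SD. The libraries numbered 3 are the lowest of their genotype in each of the 4 panels, and Tet2+/- numbers 1 and 2 lie below the other genotypes' numbers 1 and 2 for folding and ERAD genes but not for the ATF4 and CHOP branch.

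The difference between both branches within a library, chaperone score minus ATF4 score, averaged -0.05 ± 0.16 in both alleles (SD, n = 3), -0.12 ± 0.57 in Tet2+/- (SD, n = 3), -0.07 ± 0.12 in Ins2Akita/+ (SD, n = 2) and 0.21 ± 0.59 in WT (SD, n = 3). The pooled SD within genotypes, which includes the difference between library numbers, was 0.447. Those differences were -0.256 for both alleles against WT, -0.326 for Tet2+/- against WT, -0.275 for Ins2Akita/+ against WT, 0.0692 for both alleles against Tet2+/- and 0.0191 for both alleles against Ins2Akita/+. Without the libraries numbered 3 they were 0.0715, -0.311, 0.0587, 0.383 and 0.0128 in the same order. The value for Tet2+/- against WT kept its sign, and without number 3 it was made up of -0.23 for the chaperone score and 0.08 for the ATF4 score. The values for both alleles and for Ins2Akita/+ against WT changed sign. Within library numbers 1, 2 and 3, Tet2+/- minus WT was -0.0975, -0.525 and -0.354, below 0 in all 3. Its chaperone part was -0.108, -0.359 and -0.136. Both alleles minus WT was 0.0143, 0.129 and -0.912, and both alleles minus Tet2+/- was 0.112, 0.654 and -0.558. Matched in this way, the sign in number 3 was opposite to that in numbers 1 and 2 in both. The labels do not show that same-numbered libraries are matched, and 0.0143 is small beside the pooled SD of 0.447. Number 1 of both alleles, at -0.214, lay above WT number 1 at -0.228 and below WT number 2 at -0.0229.

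Seen gene by gene, the Tet2+/- libraries lay below WT for most members, at differences that no test called. Of 34 members 8 lay above 0, with a median of -0.18, where all genes had 0.03. Without number 3 there were 7 above 0 with a median of -0.18, and 19 members had both Tet2+/- libraries below both WT libraries (17.8% of genes), 10 of them folding genes. Atf4, Atf3, Ppp1r15a and Dnajb9 had both above (17.8% of genes). Hyou1 was the member furthest below WT without number 3 at -0.62 (SE 0.27, adjusted p = 0.722). In Ins2Akita/+ against WT, 30 of 34 members lay above 0 with all libraries (median 0.19) and 15 of 34 without number 3 (median -0.02), with 1 member fully above and 10 fully below (12% and 13.6% of genes).

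The Akita allele was therefore read on both backgrounds. On the Tet2+/- background, both alleles against Tet2+/-, the median of the members was 0.33 over all libraries and 0.37 without number 3. On WT, Ins2Akita/+ against WT, it was 0.19 and -0.02. The interaction had a median of 0.16 over all libraries, with 22 of 34 above 0, and 0.42 without number 3, with 31 of 34 above 0. The widest interactions without number 3 were Hyou1 at 1.06 (SE 0.38, adjusted p = 0.287), Sdf2l1 at 0.95 (SE 0.41, adjusted p = 0.383) and Creld2 at 0.77 (SE 0.34, adjusted p = 0.396), and the smallest adjusted p was that of Manf, 0.73 (SE 0.22, adjusted p = 0.216). Eif2ak3 had -0.49 (SE 0.16, adjusted p = 0.254). Since Tet2+/- itself lay below WT for most folding genes, part of each positive interaction named here is the level in Tet2+/-: for Hyou1 both alleles were 0.43 above WT (SE 0.27) and Tet2+/- stood at -0.62 against it (SE 0.27). This does not hold for Eif2ak3, where both alleles stood at -0.74 (SE 0.12) and Tet2+/- at -0.15 (SE 0.11) against WT.

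**Figure D5:**
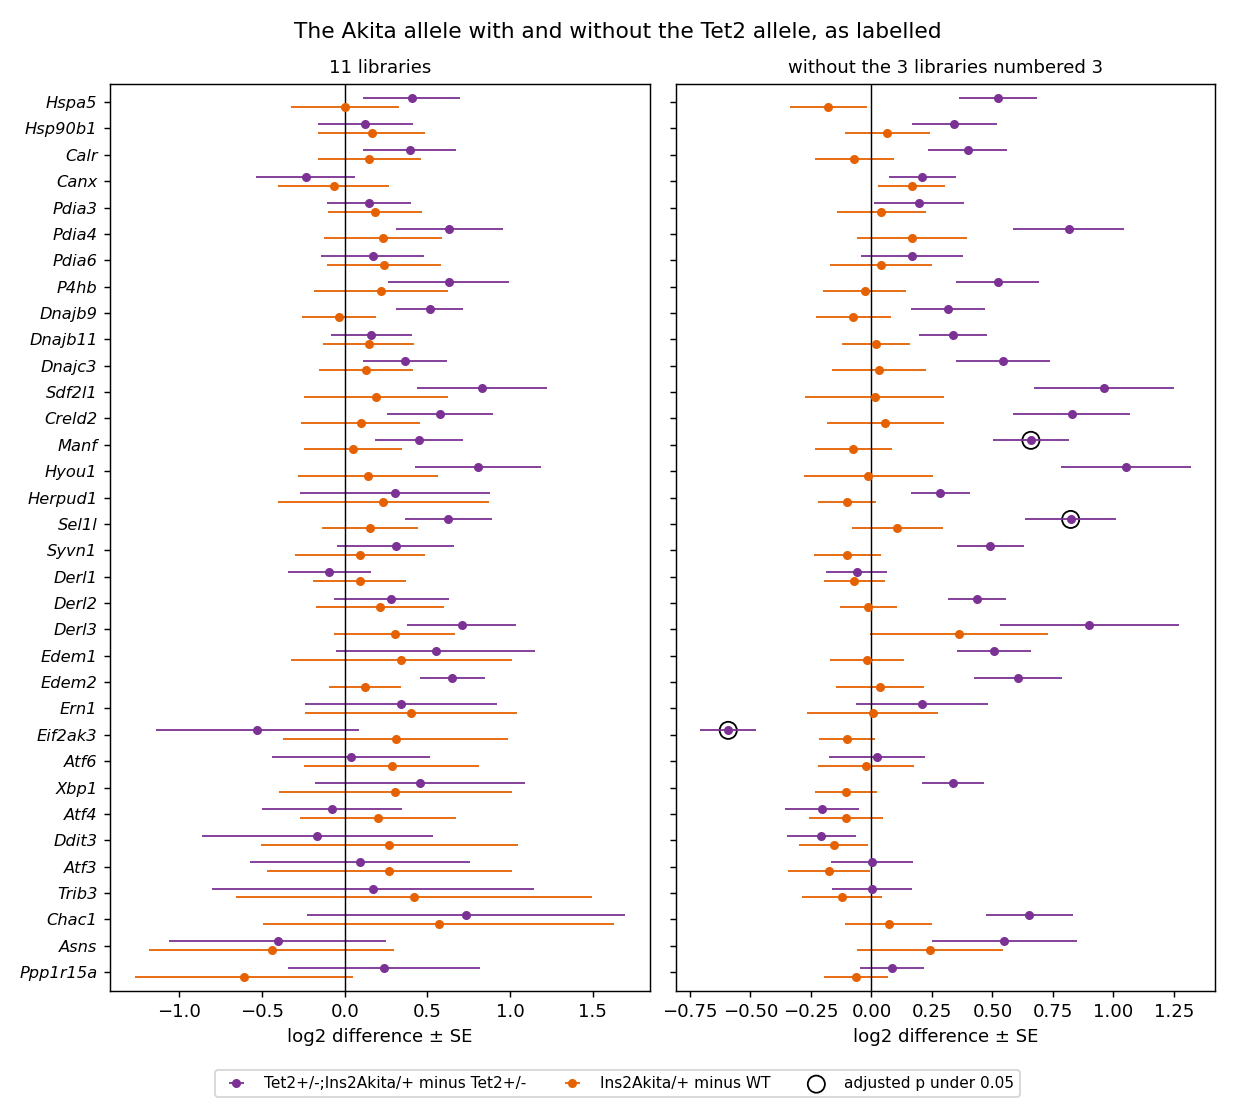
Log2 difference with its SE for each member, for Tet2+/-;Ins2Akita/+ minus Tet2+/- and for Ins2Akita/+ minus WT, over 11 libraries on the left and without the 3 libraries numbered 3 on the right; a ring marks adjusted p under 0.05. Without number 3 the folding and ERAD genes lie right of 0 on the Tet2+/- background apart from Derl1, those on WT lie between -0.18 and 0.36, and the rings mark Manf, Sel1l and Eif2ak3.

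Grouping the members by the printed promoter elements did not order these differences. For both alleles against Tet2+/-, the 11 genes with either form of the ER stress element had a median of 0.31, the 4 with TGATGNAA alone 0.13 and the 15 with neither 0.45. Without number 3 these were 0.40, 0.28 and 0.34.

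Other genes of the ER and of stress responses were read from lists that hold no member. Over all libraries none of 14 translocation genes, 11 glycosylation genes, 15 further folding genes, 14 further ERAD genes, 26 tested of 28 further ATF4 targets and 15 tested of 16 regulators was called in any of the 6 comparisons. Of these, 0, 0, 1, 0, 2 and 1 passed an unadjusted p under 0.05 for both alleles against WT and 1, 0, 2, 0, 2 and 0 for both alleles against Tet2+/-. The smallest p of both comparisons among the further folding genes was that of Fkbp11, a prolyl isomerase of secretory cells, at 1.46 against WT (SE 0.34, adjusted p = 0.181) and 1.32 against Tet2+/- (SE 0.33, adjusted p = 0.169). DESeq2 called it higher in both (adjusted p = 0.00130 and 0.00416), as did the fit with the replicate number as a block (adjusted p = 0.0473 and 0.0388). Without number 3 it was also called higher, at 1.16 (SE 0.24, adjusted p = 0.0419) and 1.02 (SE 0.24, adjusted p = 0.0384). Among the translocation genes it was Ssr4, a subunit of the translocon-associated complex, at 0.38 (SE 0.18, adjusted p = 0.620) against WT and 0.44 (SE 0.18, adjusted p = 0.420) against Tet2+/-. Among the further ATF4 targets it was Ddit4, an inhibitor of mTORC1 signalling, at 0.63 (SE 0.21, adjusted p = 0.370) against WT and Atf5 at 0.69 (SE 0.30, adjusted p = 0.442) against Tet2+/-. Among the regulators Mbtps1, the protease that first cuts ATF6, was lowest in p at -0.45 (SE 0.17, adjusted p = 0.412) and -0.35 (SE 0.17, adjusted p = 0.477) in the same comparisons.

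Without number 3 some of these genes were called. Of all genes, 3.44% were called there for both alleles against WT and 7.71% for both alleles against Tet2+/-. For both alleles against WT, 1 of 15 further folding genes was called higher and 1 lower, which was Ero1lb, an oxidase of the disulfide isomerases, at -0.70 (SE 0.12, adjusted p = 0.0287). Nupr1, a stress-induced transcriptional regulator, was the ATF4 target called higher, at 1.53 (SE 0.24, adjusted p = 0.0214). For both alleles against Tet2+/-, Ero1lb was again called lower at -0.65 (SE 0.12, adjusted p = 0.0208), and Nfe2l2, the regulator of antioxidant genes and a substrate of PERK, was called higher at 0.61 (SE 0.15, adjusted p = 0.0452). Cytosolic heat shock genes answer to protein damage outside the ER. In Tet2+/- against WT 2 of 15 lay above 0 over all libraries (median -0.45) and 0 of 15 without number 3 (median -0.68), none of them called. In both alleles against Tet2+/- 3 of 15 were called higher without number 3, with Dnaja1 at 0.63 (SE 0.13, adjusted p = 0.0285), and none was called over all libraries.

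Markers of secreting and other cells differed between the genotypes beside these genes. Plasma cell markers (6 of 6 detected) summed to 1608 to 2208 CPM in the libraries labelled with both alleles, 737 to 949 CPM in Tet2+/-, 827 to 1422 CPM in Ins2Akita/+ and 900.3 to 1414 CPM in WT. Most of that sum was Jchain, at 1508, 1840 and 2132 CPM in both alleles. It stood at 601, 684 and 868 CPM in Tet2+/-, 1281 and 693 CPM in Ins2Akita/+ and 1255, 823 and 832 CPM in WT. Sdc1, Prdm1 and Mzb1 were at 16.2 to 27.0, 3.87 to 11.6 and 15.9 to 31.7 CPM in all libraries. Tnfrsf17 lay at 0.576 to 1.94 CPM. Irf4 ran against the sum, with each library labelled with both alleles below the library of the same number in any other genotype. Its numbers 1 and 2 stood at 47.6 and 37.8 CPM in both alleles and 90.5 and 111 CPM in Tet2+/-. Maturing neutrophil markers (10 of 10 detected) summed to 45059.7 to 69424 CPM in both alleles, 2921 to 28006 CPM in Tet2+/-, 15518 to 30057 CPM in Ins2Akita/+ and 2079 to 22979 CPM in WT, without overlap between both alleles and the rest. Erythroid markers (12 of 12 detected) summed to 552 to 1518 CPM in both alleles, 1475 to 4404 CPM in Tet2+/-, 897 to 2191 CPM in Ins2Akita/+ and 987 to 2463 CPM in WT. Dendritic cell markers summed to 78.3 to 148 CPM in both alleles, 200.3 to 526 CPM in Tet2+/-, 294 to 338 CPM in Ins2Akita/+ and 272 to 374 CPM in WT. Against Tet2+/- all 6 tested lay below 0 in both alleles (median -1.99), 1 of them called, and 5 of 6 were called lower without number 3. The B lineage markers Cd79a, Cd79b, Vpreb1, Igll1, Pax5 and Ebf1 summed to 46.0 to 61.0 CPM in both alleles, 119.9 to 231 CPM in Tet2+/-, 118 to 119.7 CPM in Ins2Akita/+ and 97.4 to 139 CPM in WT. In both alleles all 6 lay below 0 against Tet2+/- (median -3.21), with 4 of 6 called lower over all libraries and 5 of 6 without number 3. Against WT 0 of 6 were called over all libraries (median -2.34) and 4 of 6 were called lower without number 3. Both lists thus had their lowest sums in the genotype where the folding genes leaned higher than in Tet2+/- and WT. Against Ins2Akita/+ the chaperone score of both alleles differed by 0.0133 over all libraries and 0.269 without number 3. Of 5 T and NK cell markers 4 lay below 0 against Tet2+/- (median -1.55), with 0 called over all libraries and 3 called lower without number 3. Of all genes, 0.262% were called for both alleles against Tet2+/- over all libraries and 7.71% without number 3. Against WT these shares were 0.0448% and 3.44%. The part of these markers in the differences of the members was not tested.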

How the data were processed

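Libraries were Lin-negative bone marrow RNA of 4 genotypes. Values are raw read counts per gene, as deposited by the authors. The submitters' processing notes name bcl2fastq, Trimmomatic 0.32, TopHat2 2.1.1 and GRCm38; no source used here names the counting program, annotation or strand setting. Of 12 labelled samples 11 had a column that matched their labels, the other was not analysed here, and 1 column that matched no label was not used. Total counts were 14814409 to 22600405; replicates differed by more than sampling noise (chi-square per gene at least 16.3).

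The main test was edgeR 4.0.16 (R 4.3.3), glmQLFit with robust = TRUE and glmQLFTest, after filterByExpr and TMM, with all 4 groups in a single model. P-values were adjusted by Benjamini-Hochberg over 15630 genes, and a gene was called under 0.05. Alternatives were DESeq2 1.42.0, limma voom 3.58.1, RLE factors, other count filters, robust = FALSE, a replicate block, and libraries left out. Scores used log2 CPM with a prior count of 2. Scripts were tested on simulated data.

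Samples of the same number deviated together in both alleles, Tet2+/- and WT (correlations 0.318 to 0.791). They did not with Ins2Akita/+ (-0.351 to 0.264). Deviations were from genotype means. Where a mean includes the outlying number 3, the lower numbers deviate the same way whatever a number shares. Ins2Akita/+ has no number 3, so the contrast cannot show that lower numbers are paired across genotypes. The labels do not say what a number shares. All 34 members are reported; 1 listed B lineage marker is not reported here. From each other list, up to 3 called genes per comparison, or the gene of smallest p, could be named. Members and lists were chosen with earlier results of these data known. Promoter sequences are RefSeq's, GRCm38.p6.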

Additional observations from a re-analysis of the deposited data

How the results depend on the processing

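No member was called over all 11 libraries, and this held for all 34 members in all 6 comparisons under RLE factors, all genes kept, genes averaging at least 5 CPM, robust = FALSE, DESeq2, limma voom and the replicate block, where the number called was 0 in each. Leaving out any library in turn gave 0 to 0 called members in each comparison. Without the libraries numbered 3, 1 member was called for both alleles against WT, 3 against Tet2+/- and 1 against Ins2Akita/+. Of all genes, 3.44%, 7.71% and 2.89% were called there, so these counts of 34 lie near the background. The cause of the change in calls was not tested. Of 204 gene and comparison pairs, 199 kept their side of the threshold there and 5 passed it, and no call reversed. With each library left out in turn, chaperone minus ATF4 score differences ran from -0.475 to 0.0778 for both alleles against WT, -0.646 to 0.00860 for Tet2+/- against WT, -0.494 to 0.0587 for Ins2Akita/+ against WT, -0.146 to 0.389 for both alleles against Tet2+/-, -0.0658 to 0.104 for both alleles against Ins2Akita/+ and 0.0105 to 0.665 for the interaction. The positive ends of the 3 comparisons with WT came from leaving out WT number 3. The SE of the members over the comparisons of 2 genotypes had a median of 0.365 over all libraries, 0.191 with the replicate block and 0.168 without the libraries numbered 3.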
